A study of Mus musculus with 6 samples.

Results

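The 36 genes described here encode aminoacyl-tRNA synthetases, the enzymes that join each amino acid to its transfer RNA. They were picked from a fixed list of names, with no measured value in the rule, out of 55487 genes in a table of RNA-seq read counts. Of these, 20 encode cytosolic synthetases and 16, with names ending in 2, encode mitochondrial ones. The libraries came from a test of leukemia maintenance. MLL-AF9 (MA9), a fusion oncogene of acute myeloid leukemia, had been introduced by retrovirus, together with GFP, into marrow cells of C57BL/6 background that carried CD45.2, Mx1-Cre and Brd9fl/fl. According to the methods of the study, a transplant model without pIpC was made first, and its CD45.2+ leukemia cells were harvested. Irradiated CD45.1(+) CD45.2(-) recipients, 6 weeks of age according to the same methods, each received 1000 of these leukemia cells. From the day after transplant they were given 3 injections of PBS or of 20 mg/kg pIpC, 1 every other day. GFP+ cells of the femora and tibiae were collected 10 days after injection, giving 3 PBS libraries and 3 pIpC libraries. Both groups carried Mx1-Cre, the floxed Brd9 alleles and MA9, and only pIpC separated them. pIpC is a synthetic double-stranded RNA to which cells respond with interferon, and the Mx1 promoter turns on Cre in cells that respond to interferon. An effect of pIpC itself cannot be told apart from an effect of Brd9 deletion in this design. The labels do not say whether each library came from its own animal, so the p-values measure the spread between libraries only.

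Each synthetase recognises 1 amino acid and its transfer RNAs and uses ATP to link them, and the product is brought to the ribosome by an elongation factor. Most amino acids have a pair of nuclear genes, one for the cytosol and one for the mitochondrion, where transfer RNAs of a separate genome are charged for the synthesis of respiratory chain subunits. Synthetases fall into class I and class II by the fold of their catalytic domain, and several cytosolic ones sit with scaffold proteins in the multisynthetase complex. In growing cells these genes are expressed broadly, and several cytosolic ones are known targets of ATF4, the transcription factor of the amino acid response.

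Values are normalized counts, in which each library was divided by its own size factor. Each PBS library held between 19277439 and 22378154 reads on genes, and each library labelled pIpC between 22348517 and 23586722. Brd9, the targeted gene, stood at 1927, 1946 and 1632 in the PBS libraries and at 2036, 2263 and 2011 in those labelled pIpC. It was thus not lower where deletion was intended (log2 fold change 0.20 ± 0.13 SE, limma adjusted p = 0.259, exact two-sided permutation p = 0.1, the smallest that 3 against 3 libraries allow), although a count over the whole gene also takes reads from exons outside the floxed part. Marker genes of several cell types moved with the label. The summed level of 10 neutrophil maturation genes was 21284 to 40277 in PBS libraries and 1901768 to 1971555 in those labelled pIpC, or 0.11 to 0.172% against 8.33 to 8.5% of reads, and all 10 were higher. All 10 erythroid genes (sums 21.6 to 33.9 against 3893 to 5436), all 10 B cell genes (1778 to 3001 against 10337 to 40486) and the 7 of 10 T and NK cell genes that passed the filter (190 to 325 against 3960 to 4578) were higher as well. Their lowest and highest log2 fold changes were those of Csf3r (0.94) and Ly6g (8.23), of Alas2 (3.26) and Hbb-bs (8.52), of Cd79b (1.25) and Pax5 (7.41), and of Cd4 (2.19) and Ncr1 (4.79). In libraries labelled pIpC Ighm made up 21636 of the mean B cell sum of 23504. Nkg7 likewise made up 4023 of the mean T and NK cell sum of 4283. The other T and NK cell genes that passed had means there of 18.9 (Gzma) to 66.9 (Lck). Markers at 0 in all PBS libraries included Slc4a1 of the erythroid list and Ms4a1 of the B cell list. These, and others with a PBS mean under 10 such as Gzma (2.18), could pass the filter only through libraries labelled pIpC. The filter was a mean of at least 10 over the 6 libraries, so a higher value was close to fixed for such genes. Among 10 macrophage genes 7 were higher and 3 lower (Adgre1 lowest at -3.80, Mrc1 highest at 4.55, sums 11198 to 15372 against 7196 to 9391). Vcam1 and Adgre1, both lower, made up 8421 and 4307 of the mean macrophage sum of 13675 in PBS libraries. In those labelled pIpC they made up 4444 and 310 of 8138. Among 10 genes of leukemia self-renewal 7 were lower and 2 higher (Hoxa10 lowest at -6.38, Mef2c highest at 7.72, sums 39733 to 46802 against 17300 to 17728). Over all 15020 genes tested 20.4% were called lower and 25% higher, by limma at an adjusted p under 0.1. These marker lists were chosen with earlier results of these data known, so their counts describe the libraries and are no test. The part of the marker genes in the results on synthetases was not tested, and fewer cells of a type cannot be told apart from less RNA per cell. PBS replicate 3 stood apart from the other PBS libraries, with a chi-square per gene of 216 and 191 against them, where PBS replicates 1 and 2 differed by 6.83 and the libraries labelled pIpC by 8.67 to 18.5. Counts of calls are therefore given with and without it.

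Scaled to transcript length, the cytosolic genes lay above most of the mitochondrial genes. In PBS libraries the cytosolic members spanned 364 (Cars, cysteine) to 3008 ± 311 (Dars, aspartate) normalized counts per 1000 bases (mean ± SD, n = 3), and the mitochondrial members 47.8 ± 7.74 (Mars2, methionine) to 577 ± 438 (Lars2, leucine). Lars2, Tars2 (574 ± 63.7) and Cars2 (505 ± 39.4) were the mitochondrial members above the lowest cytosolic one. The mean of Lars2 was raised by PBS replicate 3, which lay far above PBS replicates 1 and 2 for this gene. The place of Mars2 rests on its annotated transcript of 11294 bases. Its PBS mean before scaling, 540, was above those of Pars2 (183), Nars2 (258), Wars2 (283) and Ears2 (329), among others. Dars was followed by Kars (lysine) at 1869 ± 404, Farsa (a subunit of phenylalanyl-tRNA synthetase) at 1524 ± 152, Nars (asparagine) at 1427 ± 33.8 and Vars (valine) at 1405 ± 101 on this scale. The interval of 1 SD around Dars was clear of the one around Kars, whereas those of Kars and Farsa overlapped, as did those of Farsa, Nars and Vars. In libraries labelled pIpC the order at the top became Dars (2139 ± 180), Nars (1536 ± 136), Kars (1413 ± 125), Vars (1022 ± 42.4) and Farsa (945 ± 28.7). Nars and Kars overlapped within their SDs. The lowest level there was that of Wars2, the mitochondrial tryptophan enzyme, at 34.8 ± 2.0 per 1000 bases, next to Nars2 at 39.7 ± 4.29.

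**Figure D1:**
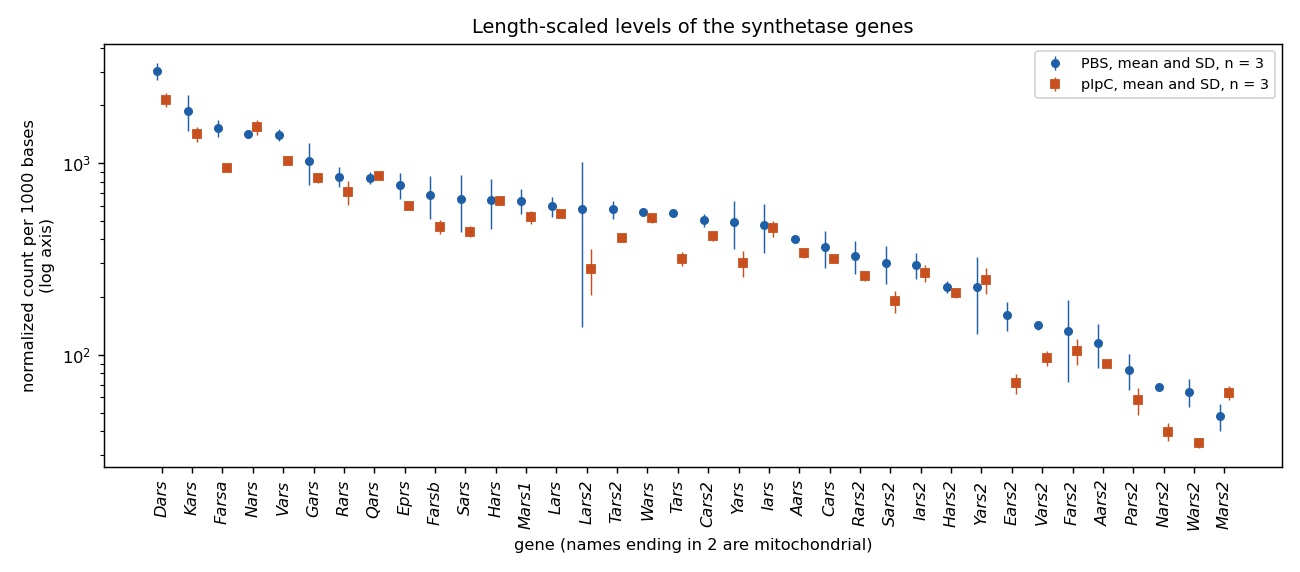
Normalized count per 1000 bases of transcript (vertical log axis) of each of the 36 synthetase genes, ordered by the PBS mean, with circles for PBS, squares for pIpC and bars for the SD over 3 libraries. Dars is highest in both groups, Mars2 is lowest in PBS libraries and Wars2 is lowest in those labelled pIpC, and the long bar of Lars2 spans 438 on each side of its PBS mean.

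Among the cytosolic synthetase genes 6 of 20 were lower in the libraries labelled pIpC and none was higher, by limma at an adjusted p under 0.1. Their summed normalized counts were 48906, 50854 and 58108 in PBS libraries and 44805, 40155 and 41176 in those labelled pIpC. The groups did not overlap, and as a share of all reads the sum went from 0.242 to 0.261% to 0.176 to 0.193%. Of the 20 genes, all of which passed the filter on low values, 17 had a log2 fold change below 0. Over all 15020 genes tested 20.4% were called lower and 25% higher. The median log2 fold change of the cytosolic genes was -0.27, with a range of -0.81 (Tars) to 0.10 (Nars), beside a median of 0.01 over all genes tested. In 11 of the 20, every library labelled pIpC lay below every PBS library, and in none did every one lie above. Over all genes tested 26.3% had this separation downward and 30.5% upward.

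**Figure D2:**
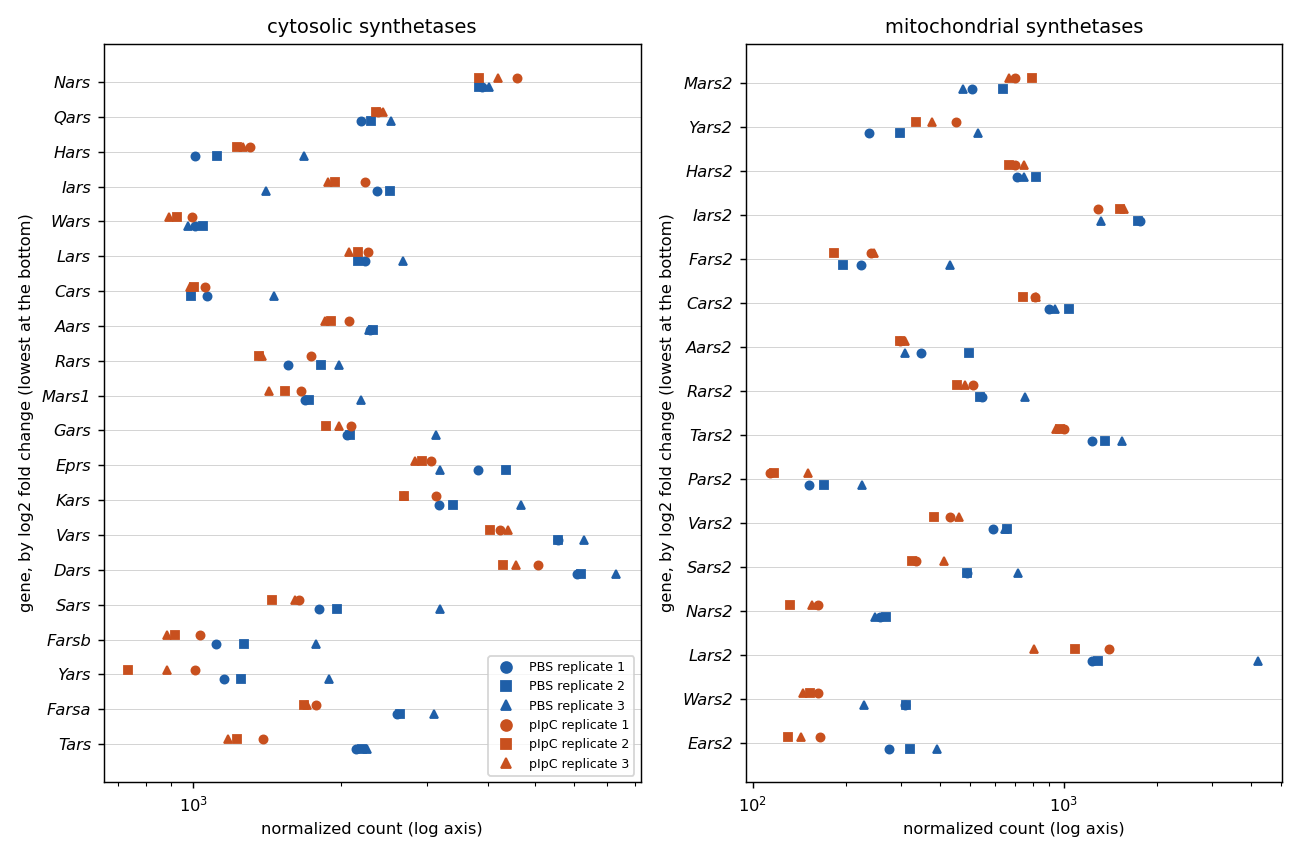
Normalized count (horizontal log axis) of each synthetase gene in each of the 6 libraries, with cytosolic genes in the left panel and mitochondrial genes in the right one, blue for PBS and orange for pIpC, and a marker shape for each replicate. The 3 libraries labelled pIpC lie to the left of all PBS libraries in 11 of 20 cytosolic and 10 of 16 mitochondrial genes, and PBS replicate 3 (blue triangle) is the farthest of the PBS points in many rows.

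The largest change among the cytosolic genes was that of Tars, which charges threonine (ENSMUSG00000022241, chromosome 15, 11382301 to 11399665, minus strand of GRCm38). Tars measured 2151, 2214 and 2265 normalized counts in PBS libraries and 1385, 1230 and 1180 in those labelled pIpC, 1.75-fold lower (log2 fold change -0.81 ± 0.12 SE, limma adjusted p = 0.00198). The PBS values were close together and the groups were far from overlapping.

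Both subunits of phenylalanyl-tRNA synthetase were also lower. Farsa, the catalytic subunit, was at 2605, 2643 and 3103 against 1784, 1682 and 1712 (log2 fold change -0.69 ± 0.12 SE, limma adjusted p = 0.00473). Farsb, the other subunit, was at 1113, 1267 and 1778 against 1034, 917 and 884 (-0.53 ± 0.19, limma adjusted p = 0.0753). The lowest PBS value of Farsb lay just above the highest pIpC value, and PBS replicate 3 was its highest library.

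Yars, which charges tyrosine, was at 1153, 1252 and 1893 in PBS libraries and at 1007, 736 and 884 in those labelled pIpC (log2 fold change -0.69 ± 0.22 SE, limma adjusted p = 0.0521). Dars, which charges aspartate, was at 6097, 6210 and 7321 against 5076, 4304 and 4575 (-0.49 ± 0.13, limma adjusted p = 0.0291). Vars, which charges valine, was at 5567, 5576 and 6292 against 4246, 4045 and 4394 (-0.46 ± 0.12, limma adjusted p = 0.0223). In all 3 genes the groups stood apart, and PBS replicate 3 was the highest PBS library.

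The 14 other cytosolic genes did not pass the threshold. Sars (serine) had the lowest value among them, with a log2 fold change of -0.52 and a limma adjusted p of 0.116, and its PBS libraries ranged from 1811 to 3195. Kars, whose gene also yields the mitochondrial lysine enzyme, was at 3179, 3398 and 4682 against 3128, 2693 and 2692 (-0.39 ± 0.18, limma adjusted p = 0.133). Eprs, a single protein with glutamate and proline activities, was at 3815, 4364 and 3192 against 3067, 2932 and 2836 (-0.35 ± 0.15, limma adjusted p = 0.102). In neither gene did the groups overlap, though the gap was small. Gars, which serves cytosol and mitochondrion with glycine, was at 2065, 2094 and 3129 against 2098, 1870 and 1981 (-0.27 ± 0.19, limma adjusted p = 0.3), with overlapping groups. Qars, the glutamine enzyme with no gene of its own for the mitochondrion, was at 2199, 2307 and 2536 against 2383, 2363 and 2445 (0.03 ± 0.11, 95% interval -0.23 to 0.30, limma adjusted p = 0.839). Here the libraries labelled pIpC lay within the PBS range. Nars, at 3898, 3836 and 4019 against 4594, 3846 and 4206, had the highest cytosolic log2 fold change, 0.10 with a 95% interval of -0.18 to 0.38.

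Wars, the tryptophan enzyme, is known to be induced by interferon. It was at 1007, 1049 and 977 in PBS libraries and at 995, 928 and 894 in those labelled pIpC (log2 fold change -0.11 ± 0.11 SE, 95% interval -0.38 to 0.16, limma adjusted p = 0.492), and the groups overlapped. Of 20 interferon response genes in the same fit 7 were higher and 2 lower, with a median of 0.82. Without PBS replicate 3 these counts were 9 and 3. The shares of all genes tested were 25% higher and 20.4% lower, or 34.5% and 30.6% without that library. The lowest of the 20 was Ido1, which degrades tryptophan, at 18.2, 26.3 and 23.8 against 5.0, 1.0 and 2.9 normalized counts. The highest was Ifi44, at 0.0, 0.0 and 4.5 against 64.9, 25.5 and 8.7. Several genes of the list were far higher in the first library labelled pIpC than in the other two, and Oasl2, chosen after its values were seen, was at 745, 319 and 226 there.

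The windows before the cytosolic genes are shown because several members are known ATF4 targets. RefSeq windows on build GRCm38.p6, from 250 bases before to 50 bases after a start, were found for 27 of the 36 members, 13 cytosolic and 14 mitochondrial. 3 motifs were searched on both strands: TGATGNAA, the CEBP-ATF response element bound by ATF4 with a C/EBP partner, CACGTG, the E-box bound by MYC and related factors, and CCGGAA, the core bound by ETS factors. A member was counted once if any of its windows held a match, whereas the share of all is per window. The first was found for 5 of 13 cytosolic members (Aars, Gars, Iars, Tars, Yars), for 0 of 14 mitochondrial members and in 3.97% of all 32851 windows. The E-box was found for 4 of 13 cytosolic members (Aars, Farsb, Iars, Tars), for 1 of 14 mitochondrial ones and in 7.15% of all windows. No 2 of these matches overlapped each other in a member. The stretches run 5′ to 3′ on the strand of the gene, with 1 match in capitals, and a motif on the other strand appears as its reverse complement. Tars holds both motifs, the first 15 bases before its start (chr15:11399659-11399718, minus strand) and the E-box 19 bases after it (chr15:11399623-11399650).
Tars, CEBP-ATF element: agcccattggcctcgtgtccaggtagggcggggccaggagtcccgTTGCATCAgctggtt
Tars, E-box: ccgcctgtggcCACGTGgcgcacgcgca
Yars, CEBP-ATF element, 3 bases after the start (chr4:129189895-129189924, plus strand): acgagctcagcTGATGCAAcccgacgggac
Gars, CEBP-ATF element, 30 bases before the start (chr6:55037941-55038000, plus strand): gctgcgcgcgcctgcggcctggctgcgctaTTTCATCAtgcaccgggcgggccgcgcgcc
Aars, CEBP-ATF element, 112 bases before the start (chr8:111033704-111033763, plus strand): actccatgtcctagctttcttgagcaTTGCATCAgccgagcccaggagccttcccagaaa
Iars, CEBP-ATF element, 7 bases after the start (chr13:49682126-49682155, plus strand): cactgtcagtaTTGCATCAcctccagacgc
Farsb, E-box, 39 bases before the start (chr1:78488903-78488962, minus strand): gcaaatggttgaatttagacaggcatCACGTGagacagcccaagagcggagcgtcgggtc

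The 5 genes with the CEBP-ATF element ran from the lowest cytosolic log2 fold change to one close to 0. Tars and Yars were lower (log2 fold change -0.81 and -0.69), whereas Gars (-0.27), Aars (-0.24) and Iars (-0.01) did not pass the threshold, and Dars, Farsa and Farsb were lower without a match in their windows. Of the 4 genes with an E-box Tars and Farsb were lower and Aars and Iars did not pass. Atf4 itself was at 5733, 5929 and 6333 normalized counts in PBS libraries and at 4278, 3909 and 4034 in those labelled pIpC (log2 fold change -0.56 ± 0.11 SE, limma adjusted p = 0.00875), and Myc was at 2667, 2582 and 4145 against 1834, 1727 and 1670 (-0.81 ± 0.20, limma adjusted p = 0.0193). Both transcription factor genes were lower, with no overlap between groups. A match is a run of letters and says nothing of binding.

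Among the mitochondrial synthetase genes 6 of 16 were lower in the libraries labelled pIpC and 1 was higher. Their summed normalized counts were 9767, 10642 and 13709 in PBS libraries and 8767, 8288 and 8425 in those labelled pIpC, without overlap, or 0.0504 to 0.0571% and 0.0363 to 0.0378% of reads. The shares over all genes were 20.4% lower and 25% higher. Of the 16 genes, all of which passed the filter, 14 had a log2 fold change below 0. The median was -0.41 and the range -1.16 (Ears2) to 0.42 (Mars2). In 10 genes the libraries labelled pIpC lay wholly below the PBS libraries, and in 1 wholly above. Such separation was found in 26.3% of all genes tested downward and in 30.5% upward.

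**Figure D3:**
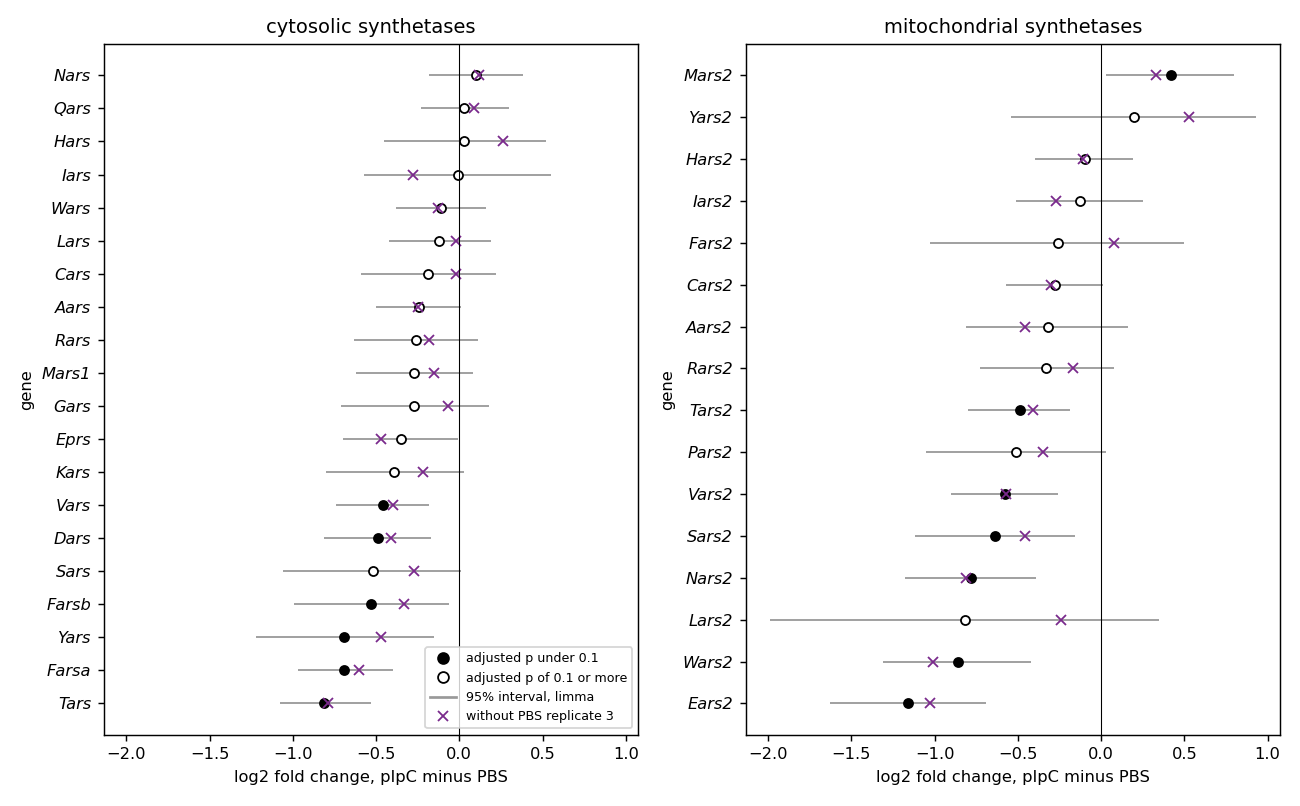
Log2 fold change of each synthetase gene, libraries labelled pIpC minus PBS, with the 95% interval of the limma fit, for the cytosolic (left) and mitochondrial (right) genes, filled where the adjusted p was under 0.1, and with a cross for the value without PBS replicate 3. 6 cytosolic and 6 mitochondrial genes are filled on the lower side and Mars2 alone is filled on the higher side, and the cross of Lars2 lies far to the right of its circle.

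Ears2, which charges glutamate (ENSMUSG00000030871, chromosome 7, 122037213 to 122067263, minus strand of GRCm38), changed most of all 36 members. It was at 275, 321 and 390 normalized counts in PBS libraries and at 165, 130 and 143 in those labelled pIpC, 2.23-fold lower (log2 fold change -1.16 ± 0.20 SE, limma adjusted p = 0.00415). Wars2, for tryptophan, was at 310, 311 and 229 against 163, 153 and 145 (-0.86 ± 0.19, limma adjusted p = 0.0115). Nars2, for asparagine, was at 258, 268 and 247 against 163, 132 and 156 (-0.78 ± 0.17, limma adjusted p = 0.0106). All 3 genes were separated by a wide gap, and for Wars2 PBS replicate 3 was the lowest PBS library, the opposite of its place for Ears2.

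Sars2, for serine, was at 489, 491 and 712 in PBS libraries and at 334, 326 and 412 in those labelled pIpC (log2 fold change -0.64 ± 0.20 SE, limma adjusted p = 0.0458). Vars2, for valine, was at 594, 660 and 647 against 430, 383 and 459 (-0.58 ± 0.14, limma adjusted p = 0.0157). Tars2, for threonine, was at 1234, 1360 and 1538 against 1006, 974 and 946 (-0.49 ± 0.13, limma adjusted p = 0.0234). The groups stood apart in each of them. Mars2, named as the only member called higher, was at 506, 640 and 475 against 698, 790 and 667, 1.34-fold higher (0.42 ± 0.16, limma adjusted p = 0.086). Its transcript, at 11294 bases, is the longest of all members. Once the dependence on transcript length was taken out of every library, its log2 fold change was -0.06 (limma adjusted p = 0.865). Without PBS replicate 3, and with no such correction, its log2 fold change was 0.33 (limma adjusted p = 0.043).

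The other 9 mitochondrial genes did not pass the threshold. Lars2, for leucine, was at 1230, 1294 and 4217 in PBS libraries and at 1397, 1086 and 805 in those labelled pIpC. PBS replicate 3 was far above every other library, and the log2 fold change of -0.82 ± 0.49 SE (limma adjusted p = 0.234) was -0.24 without it. Hars2, for histidine, was at 710, 816 and 744 against 696, 669 and 747 (-0.10 ± 0.12, limma adjusted p = 0.547), and the cytosolic Hars, its neighbour on the opposite strand, at 1006, 1118 and 1687 against 1304, 1230 and 1266 (0.03 ± 0.20, limma adjusted p = 0.914). Their annotated exons share 195 bases. The labels call the libraries unstranded and the methods of the study name a stranded kit. Without strand, reads there cannot be assigned to one of them. The remaining members were Aars2, Cars2, Fars2, Iars2, Pars2, Rars2 and Yars2, with log2 fold changes between -0.51 (Pars2) and 0.20 (Yars2). In Iars2 2034 of 8885 exon bases (22.9%) overlap Rab3gap2 on the other strand, so its counts carry the same limit.

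The ETS motif was the commonest of the 3 among mitochondrial members with a window, found for 7 of 14 (Cars2, Iars2, Mars2, Rars2, Sars2, Tars2, Wars2). It was found for 5 of 13 cytosolic members (Farsa, Gars, Kars, Mars1, Sars) and in 14.9% of all windows. The stretches of Wars2, Tars2 and Mars2 are shown as genes that moved in both directions, with that of Farsa as a cytosolic gene that was lower, and that of Ears2 as the only mitochondrial window with an E-box. Tars2 and Farsa each hold another ETS match within the stretch, left in lower case, 59 and 9 bases before the start. Coordinates are on GRCm38.p6 and sequences from RefSeq.
Wars2, ETS element, 21 bases before the start (chr3:99141030-99141089, plus strand): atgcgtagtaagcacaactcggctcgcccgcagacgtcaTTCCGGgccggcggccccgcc
Tars2, ETS element, 49 bases before the start (chr3:95754993-95755052, minus strand): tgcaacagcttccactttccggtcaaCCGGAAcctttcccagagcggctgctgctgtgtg
Mars2, ETS element, 23 bases before the start (chr1:55237117-55237176, plus strand): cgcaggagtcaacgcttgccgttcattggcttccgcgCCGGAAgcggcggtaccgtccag
Farsa, ETS element, 21 bases before the start (chr8:84856926-84856985, plus strand): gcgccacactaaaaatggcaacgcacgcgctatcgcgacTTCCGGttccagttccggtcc
Ears2, E-box, 21 bases after the start (chr7:122067049-122067076, minus strand): gcgaaggagccCACGTGtgtgtttctag

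Of the 7 mitochondrial genes with an ETS match, Sars2, Tars2 and Wars2 were lower, Mars2 was higher and 3 did not pass. Ears2, Nars2 and Vars2 were lower without one in these windows. Genes called lower thus stood both with and without a match.

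The ratio of a cytosolic gene to its mitochondrial partner within a library does not depend on the size factor. Of 17 such pairs, 6 did not overlap between the groups, 3 in each direction, or 6 upward and 4 downward without PBS replicate 3. Single genes without overlap, over all 6 libraries, made up 26.3% (lower) and 30.5% (higher) of those tested. No such share was computed for ratios or without PBS replicate 3. Groups with fewer libraries stand apart more easily, so these counts of pairs have no matching background. The largest rise was for asparagine, where the log2 ratio of Nars to Nars2 was 3.91, 3.83 and 4.02 in PBS libraries and 4.81, 4.86 and 4.75 in those labelled pIpC, a change of 0.88 (0.93 without PBS replicate 3). Nars was the cytosolic gene with the highest log2 fold change and Nars2 among the mitochondrial genes that were lowest. The largest fall was for tyrosine, where Yars over Yars2 was 2.28, 2.06 and 1.84 against 1.16, 1.14 and 1.23, a change of -0.88 (-1.0 without PBS replicate 3). In that pair the cytosolic gene was lower and the mitochondrial one was not.

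The other pairs that did not overlap were Eprs over Ears2, with a change in log2 ratio of 0.81, Wars over Wars2 (0.76), Mars1 over Mars2 (-0.69) and Tars over Tars2 (-0.31). For Wars over Wars2 the 3 libraries labelled pIpC agreed closely, at 2.61, 2.59 and 2.61, against 1.70, 1.75 and 2.09. In the threonine pair both partners were lower, Tars more than Tars2. In the valine pair both were lower too, and the ratio changed by 0.12 with overlapping groups. In the remaining pairs the groups overlapped, and the change of 0.70 for Lars over Lars2 was 0.22 without PBS replicate 3, which was at -0.65 where the other PBS libraries were at 0.87 and 0.74. The principal transcripts of partners share no run of 31 bases in the same orientation. The changes in ratio were described without a test.

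**Figure D4:**
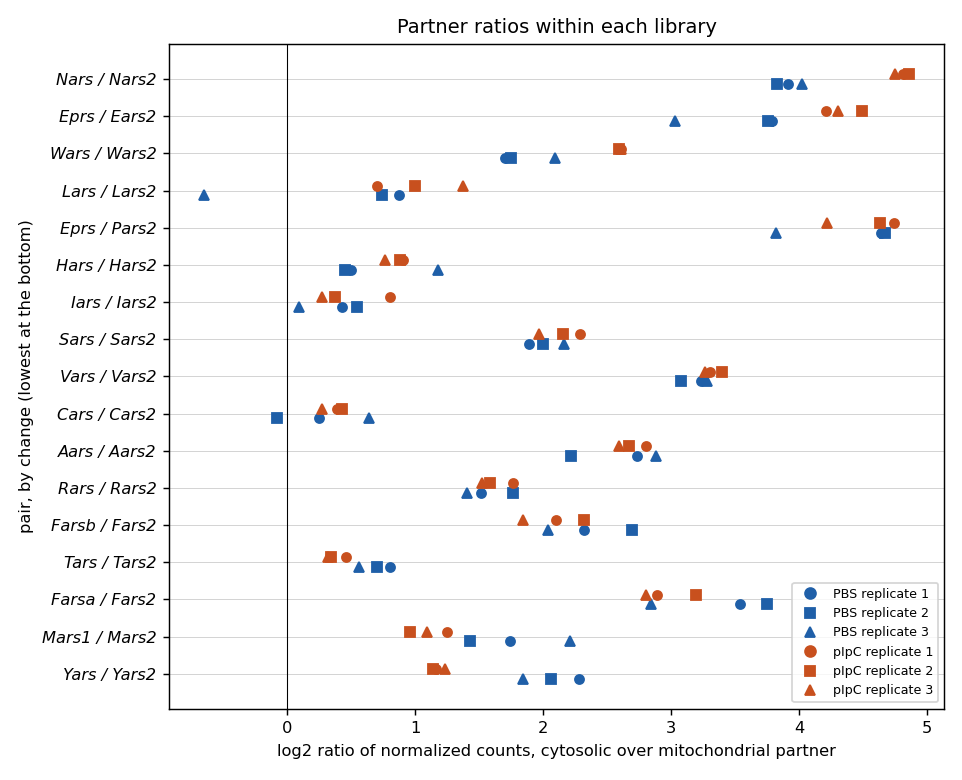
Log2 ratio of normalized counts of each cytosolic synthetase gene over its mitochondrial partner (horizontal axis) in each of the 6 libraries, for 17 pairs ordered by the change between groups, blue for PBS, orange for pIpC and a marker shape for each replicate. Nars over Nars2 at the top lies between 3.83 and 4.02 in PBS libraries and between 4.75 and 4.86 in those labelled pIpC, and Yars over Yars2 at the bottom goes the other way.

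By structural group, 1 of the 8 synthetases of the multisynthetase complex was called lower (Dars; median log2 fold change -0.27), as were 5 of the 12 cytosolic synthetases outside it (median -0.36). Of the cytosolic genes of class I 2 of 9 were lower and of class II 4 of 10, leaving out Eprs, which holds both. Of the mitochondrial genes 3 of 9 in class I and 3 of 7 in class II were lower. Over all genes 20.4% were lower. Without PBS replicate 3 the counts were 4 of 8 in the complex and 7 of 12 outside it, 3 of 9 and 7 of 10 in cytosolic class I and II, and 5 of 9 and 4 of 7 in mitochondrial class I and II, beside 30.6% of all genes. These shares were not tested against each other. The complex is held together by the non-catalytic proteins Aimp1, Aimp2 and Eef1e1, and 2 of the 3 were lower, or all 3 without PBS replicate 3. Eef1e1 was lowest, at 754, 751 and 1133 against 416, 348 and 434 (-1.11 ± 0.20, limma adjusted p = 0.00565), and Aimp2 was at 427, 473 and 748 against 363, 307 and 305 (-0.72 ± 0.24, limma adjusted p = 0.0537). Aimp1 was at 1063, 1100 and 2188 against 947, 767 and 864 (-0.67 ± 0.29, limma adjusted p = 0.113). In none of the 3 did the groups overlap, and PBS replicate 3 was the highest library of each. Of all genes tested 26.3% had this separation downward.

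Genes that act before and after the synthetases gave values on the same side for the most part. Over all genes tested 20.4% were lower and 25% higher, or 30.6% and 34.5% without PBS replicate 3. Of 11 further genes of transfer RNA charging 6 were lower and none higher, at a median log2 fold change of -0.51, while 7 were lower without PBS replicate 3. Dtd1, which removes D-amino acids from transfer RNA, was lowest, at 534, 584 and 886 against 311, 249 and 337 (-1.13 ± 0.23, limma adjusted p = 0.0093). Among 19 tested genes of cytosolic transfer RNA processing 8 were lower and none higher (median -0.34), or 9 and 3 without PBS replicate 3. Their lowest was Tsen54, a subunit of the splicing endonuclease, at 476, 489 and 742 against 308, 259 and 244 (-1.05 ± 0.22, limma adjusted p = 0.00945), and their highest was Adat2, a transfer RNA deaminase subunit, at 0.36 (limma adjusted p = 0.24).

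Of 9 cytosolic elongation and termination factors 3 were lower (Eef1a1, Eef1b2 and Eef2) and 1 higher, with a median log2 fold change of -0.50. Without PBS replicate 3 the count was 6 lower and 1 higher. Of all genes tested 20.4% were lower and 25% higher, or 30.6% and 34.5% without that library. Eef1a1, which carries charged transfer RNA to the ribosome, was at 176637, 172932 and 222936 against 116752, 108936 and 108441 (-0.77 ± 0.23, limma adjusted p = 0.0392). Eef1b2, its exchange factor, was the lowest at -1.16 (limma adjusted p = 0.0538). PBS replicate 3, at 28236, was well above the other PBS libraries of Eef1b2, at 10416 and 10771. Etf1, the release factor, was the 1 higher gene, at 3297, 3485 and 3318 against 4497, 3995 and 3890 (0.29 ± 0.12, limma adjusted p = 0.0924), and it did not pass with the length trend removed (0.18, limma adjusted p = 0.194). Of 14 tested genes of mitochondrial translation and transfer RNA modification 6 were lower and 1 higher (median -0.45), or 9 and 1 without PBS replicate 3. The lowest was Mrrf, the ribosome recycling factor (-0.79 ± 0.28, limma adjusted p = 0.0638), and the highest Gfm2, an elongation factor G of ribosome recycling, at 562, 543 and 495 against 762, 705 and 778 (0.49 ± 0.13, limma adjusted p = 0.0224).

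The wider ATF4 response held genes that moved in either direction, as did all genes tested, of which 20.4% were lower and 25% higher. Of 19 tested genes 5 were lower (Atf4, Atf5, Psat1, Shmt2, Slc1a5) and 5 higher (Asns, Phgdh, Chac1, Sesn2, Slc7a11), with a median log2 fold change of -0.30. Without PBS replicate 3, 10 were lower and 5 higher, beside 30.6% and 34.5% of all genes. Atf5 was lowest, at 402, 305 and 491 against 194, 159 and 190 (-1.12 ± 0.22, limma adjusted p = 0.00716). Phgdh, the first enzyme of serine synthesis, was highest, at 20.8, 24.3 and 23.8 against 2528, 1945 and 2141, or 91.8-fold higher (6.52 ± 0.17, limma adjusted p = 1.03e-05). Psat1, the next enzyme of that pathway, was lower, at 3306, 3548 and 3801 against 1900, 1676 and 1577 (-1.05 ± 0.13, limma adjusted p = 0.000874). Asns, which makes asparagine, was at 511, 591 and 788 against 980, 924 and 800 (0.53 ± 0.19, limma adjusted p = 0.0687), beside Nars, which uses it, at a log2 fold change of 0.10.

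PBS replicate 3 differed from the other PBS libraries by transcript length. Over the genes tested, split into 5 groups of near equal size by length, its median log2 difference from the mean of PBS replicates 1 and 2 was 0.88 in the shortest group, then 0.46, 0.06 and -0.25, and -0.68 in the longest, where PBS replicates 1 and 2 differed from each other by -0.05 to 0.02. Among the members, the 18 shorter ones (up to 2800 bases) had a median difference of 0.43, with 16 above 0, and the 18 longer ones 0.02, with 9 above 0. Fars2 (1.05) and Yars2 (0.99) were high in this library and Iars (-0.80) was low.

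**Figure D5:**
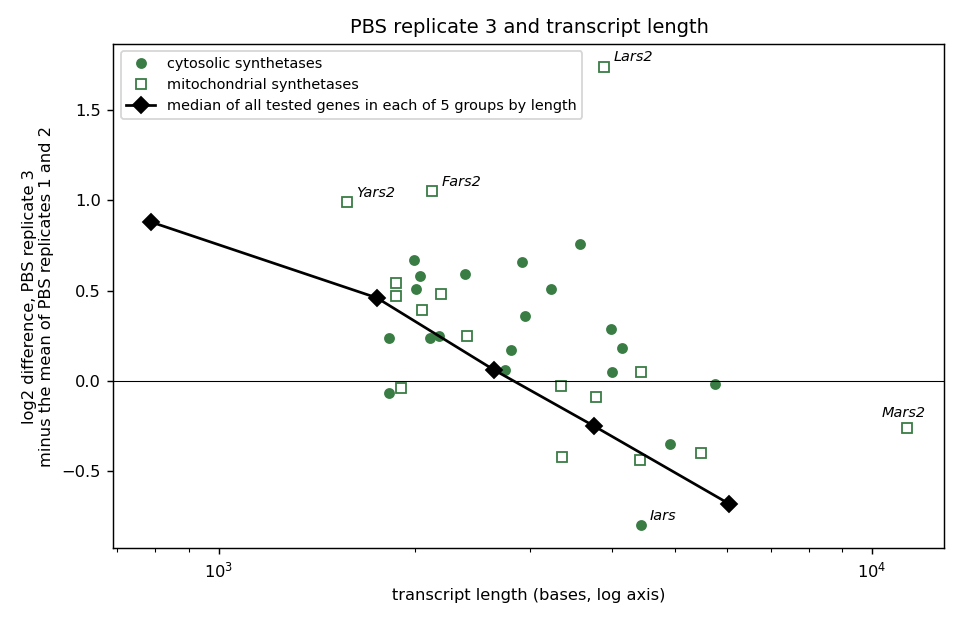
Log2 difference of PBS replicate 3 from the mean of PBS replicates 1 and 2 (vertical axis) against transcript length in bases (horizontal log axis), with filled circles for cytosolic and open squares for mitochondrial synthetase genes, and diamonds for the median of all tested genes in each of 5 groups by length. The diamonds fall from 0.88 to -0.68, and Lars2, at 1.74, is the farthest member from them.

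Without PBS replicate 3, 11 cytosolic genes were lower and 1 (Hars) higher, and 9 mitochondrial genes were lower and 2 (Mars2, Yars2) higher, against 30.6% lower and 34.5% higher over all genes. All 13 genes called with every library kept their call, and Aars, Eprs, Hars, Iars, Kars, Sars, Aars2, Cars2, Iars2 and Yars2 were added. With each library's length trend removed instead, an alternative chosen after the data were seen, 10 cytosolic and 7 mitochondrial genes were lower and none higher, against 24.4% lower and 29% higher over all genes. The medians were then -0.27 for the cytosolic and -0.41 for the mitochondrial genes, as in the unadjusted fit. Tars (-0.96) was again the lowest cytosolic gene, and Wars2 (-1.06) and Ears2 (-1.03) were the lowest mitochondrial ones.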

How the data were processed

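RNA was poly(A)-selected and sequenced from libraries that the labels call unstranded, whereas the methods of the study name a stranded kit. The deposited table holds one normalized count per gene and library, a signal that the authors made by dividing read counts by a size factor. The submitters' processing notes name HISAT2 2.2.1, SAMtools, Subread featureCounts, edgeR and build GRCm38, whereas the methods of the study name nf-core/rnaseq with STAR and RSEM, and DESeq2. Which of them made the table was not settled. The labels name GFP+ cells, and the text of the study speaks of c-Kit+ cells. Every value above 0 was a whole multiple of 1 read (100% in each library, tolerance 0.001), so reads were recovered.

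The main test was limma 3.58.1 (R 4.3.3) with its variance trend switched on, applied to log2(normalized count + 1) of 15020 genes with a mean of at least 10 over the 6 libraries, with Benjamini-Hochberg adjustment over all of them and a threshold of 0.1. Fold changes on this scale understate those of low genes. Alternatives were pseudocounts of 0.1 and 10, no filter or a mean of 50, quantile normalization, median centring, a replicate block, no trend, edgeR 4.0.16 (quasi-likelihood) and DESeq2 1.42.0 on recovered reads, an adjusted p under 0.05, each library left out, and, added after the data were seen, removal of the trend with transcript length. The fits were also run on simulated counts. Those held fewer changed genes than these data, larger changes than those of the members and no trend with transcript length. That run therefore does not show how the fits perform under the conditions of these data. Transcript lengths came from GENCODE M21 on GRCm38, the promoter windows from RefSeq.

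Of the 36 members 35 carried the listed symbol and Mars1 was listed as Mars. Members and lists were chosen with earlier results of these data known. Of 158 list genes 157 were found. Values per library are given for Brd9, the 6 cytosolic and 6 mitochondrial genes with the largest called changes, and Wars, Gars, Kars, Qars, Eprs, Hars and Hars2, and the extremes of each list are named, apart from a few genes of the lists that are not reported here. Other genes were named after their values were seen. Samples with one replicate number deviated from their group means with correlations of -0.117, 0.143 and 0.041, so the numbers were not taken as pairs.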

Additional observations from a re-analysis of the deposited data

How the results depend on the processing

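Over 684 comparisons of a member with an alternative, 598 kept direction and side of the threshold, 26 lost and 40 gained a call, and 20 changed sign. The sign changed for Hars (-0.071 with quantile normalization, -0.005 with median centring, -0.020 with edgeR, -0.006 with DESeq2), Nars (-0.016 with quantile normalization) and Qars (-0.092 with quantile normalization, -0.005 with median centring), and, with the length trend removed, with or without a replicate block, for Wars (0.067) and Mars2 (-0.058). Leaving out 1 library gave -0.117 to 0.256 for Hars, -0.277 to 0.143 for Iars, -0.013 to 0.090 for Qars, -0.050 to 0.528 for Yars2 and -0.486 to 0.085 for Fars2.

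The 6 cytosolic genes called lower became 12 (median -0.404) with quantile normalization, which moved the median of all genes to -0.12 and the share of higher calls from 55.1% to 44.3%, and 10 with the length trend removed. Leaving out 1 library gave 2 to 11, with 11 without PBS replicate 3, 2 without pIpC replicate 2 and 3 without pIpC replicate 3. Of all 15020 genes tested 3058 were called lower in the full fit, 4078 with quantile normalization and 3667 with the length trend removed. Without PBS replicate 3 this number was 4597, without pIpC replicate 2 it was 1860 and without pIpC replicate 3 it was 1908. With 1 library left out, the cytosolic genes called higher numbered 0 to 1 and the mitochondrial ones 0 to 2, beside 2790 to 5186 of all genes. The call of Mars2 as higher was lost (0 genes) with no filter, quantile normalization, median centring, the replicate block, no intensity trend, an adjusted p under 0.05 and both length corrections, and without PBS replicate 1 or any 1 of the libraries labelled pIpC. Leaving out 1 library called 4650 to 9783 genes in all, with 6808 in the full fit. The replicate block called 6095 genes, kept 11 of the 13 member calls (Farsb and Mars2 were lost) and left Brd9 at 0.20. The lowest value of any member in a library was 114 normalized counts (Pars2), far above a floor of 3 reads.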
